A study of Homo sapiens with 10 samples.

Results

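GLIS3 was described at the level of the gene and of each of its transcripts. It was taken by its Ensembl identifier, ENSG00000107249.17, as 1 gene of the 26346 in the deposited tables and 17 of their 155130 transcripts. The samples were EndoC-βH1 cells, a human insulin-producing beta cell line, so all 10 libraries come from 1 line. In 5 preparations the cells received siSR#2, an siRNA against SRp55, the SR splicing protein that SRSF6 encodes, and 5 preparations received the control siRNA siCTL. The series design calls the 5 preparations independent. Polyadenylated RNA was sequenced.

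GLIS3 is a Krüppel-like zinc finger transcription factor that binds GLIS sites in DNA, among them one in the insulin promoter. Its loss causes neonatal diabetes with congenital hypothyroidism in humans, and variants at the locus are associated with both common forms of diabetes. In earlier work on beta cells, lowering GLIS3 lowered SRp55 and shifted the splicing of the apoptosis gene BIM (BCL2L11). The libraries here address the opposite direction, the level and transcript make-up of GLIS3 once SRp55 has been lowered.

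In the files, GLIS3 lies on chromosome 9 of GRCh37, on the minus strand, from 3824127 to 4348392, a span of 524 kb. Of its 17 transcripts, GENCODE 44 annotates 7 as protein coding, 7 as transcripts of a coding gene with no defined reading frame, 2 as retaining an intron and 1 as a target of nonsense-mediated decay. The exon structures of GENCODE 44, trimmed to the ends in the files, gave the deposited length for 17 of 17 transcripts. The 5′ ends fall into 3 regions. An upstream region holds the starts of 8 transcripts, among them the long coding transcript ENST00000381971.3, which encodes 930 residues. A downstream region, whose full-length coding start lies 148 kb further into the gene, holds 4, among them the short coding transcript ENST00000324333.10, which encodes 775 residues. The other 5 start further inside the gene.

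**Figure D1:**
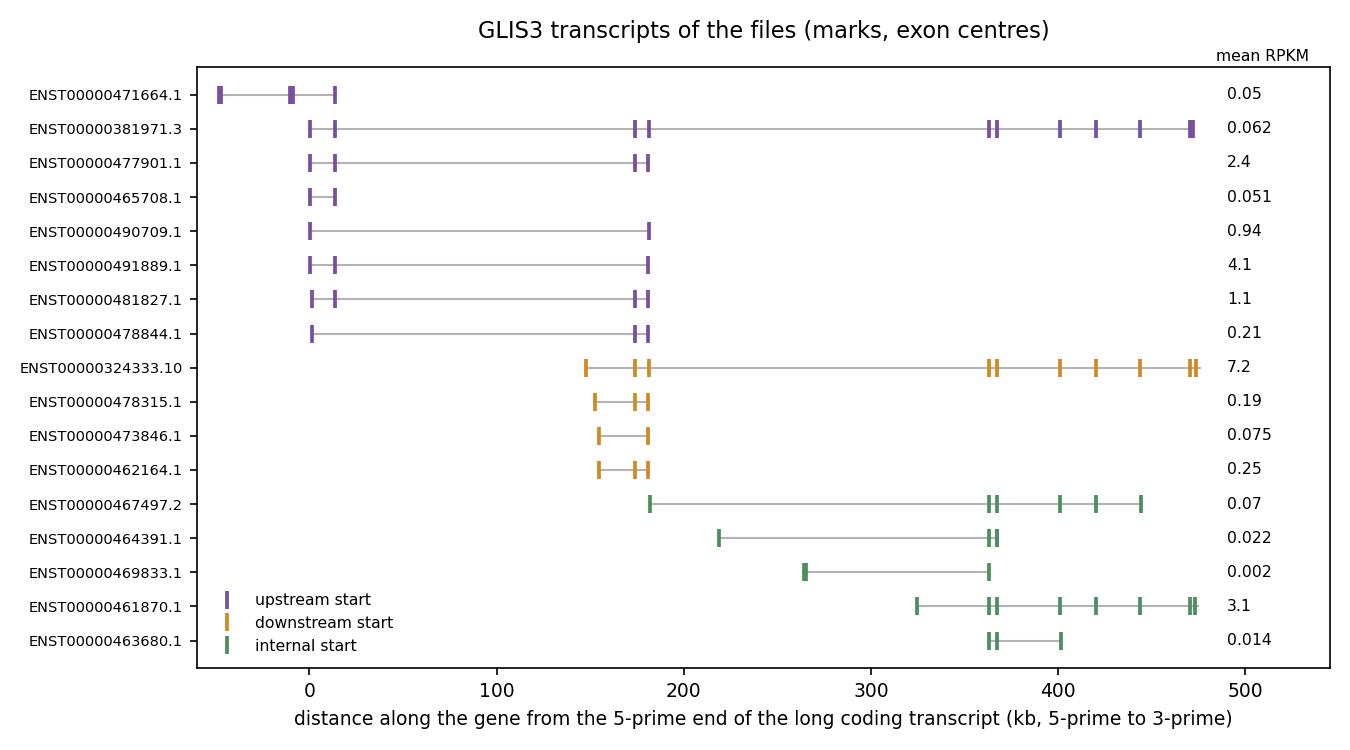
The 17 GLIS3 transcripts drawn 5′ to 3′ by distance in kb from the 5′ end of the long coding transcript, with a mark at the centre of each exon, a colour for each start region and the mean RPKM over the 10 libraries at the right. By the ends in the files, 1 of the 8 upstream-start transcripts reaches the last exon, and the short coding transcript has the highest mean.

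Splice junctions tell transcripts that contain a 208-base exon from those that skip it, and 3 junctions of upstream-start transcripts are shown. Junction reads were not counted, and the levels below are those deposited for transcripts. Capitals mark the last bases of the upstream exon and lower case the first bases of the exon joined to it, read 5′ to 3′ from GRCh38 on the minus strand of chromosome 9. The long coding transcript joins a 486-base exon to the 208-base exon, a junction that ENST00000477901.1 and ENST00000481827.1 share. The decay-annotated transcript ENST00000491889.1 leaves the 208-base exon out, and so does ENST00000490709.1, which has no defined reading frame.
ENST00000381971: CAAATCCTGGGAAAGgggctcttggctttg
ENST00000491889: CAAATCCTGGGAAAGgtcccttatttcgcg
ENST00000490709: AATCCCGGTTACCTGgtcccttatttcgcg
The 208 bases leave a remainder of 1 when divided by 3, so skipping the exon changes the reading frame. In GENCODE 44 the open reading frame of the decay-annotated transcript has 142 residues.

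The RefSeq table of GRCh38.p14 has a promoter in each of the upstream and downstream regions, given here as the 300 bases from 250 before to 50 after the annotated start on the minus strand. RefSeq's upstream start lies inside the upstream region and is not the 5′ end of the long coding transcript. The windows are shown because levels are given below by start region. Capitals mark TATAAA, searched on both strands.
Upstream start, chr9:4298447-4298746: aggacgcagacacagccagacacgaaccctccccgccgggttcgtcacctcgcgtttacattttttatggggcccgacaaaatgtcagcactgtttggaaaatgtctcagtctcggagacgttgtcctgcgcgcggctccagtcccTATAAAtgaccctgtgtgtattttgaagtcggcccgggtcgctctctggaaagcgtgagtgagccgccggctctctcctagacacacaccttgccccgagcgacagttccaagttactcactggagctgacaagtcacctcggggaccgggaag
Downstream start, chr9:4152134-4152433: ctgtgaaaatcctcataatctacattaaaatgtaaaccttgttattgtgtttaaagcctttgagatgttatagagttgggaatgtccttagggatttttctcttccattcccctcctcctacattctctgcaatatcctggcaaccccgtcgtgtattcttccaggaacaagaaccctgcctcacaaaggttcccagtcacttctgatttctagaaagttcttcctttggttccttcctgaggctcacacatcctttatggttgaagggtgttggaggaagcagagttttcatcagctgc
The upstream window is 57.3% G or C with 23 CpG, against 42.7% and 2 CpG in the downstream window, where the median promoter of the table is 58.7% G or C. TATAAA occurs in the upstream window only, as in 11.5% of the 35116 promoters of the table. TGGGGGGT, a form of the GLIS site, is in neither window and in 1.47% of the promoters.

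The targeted gene bore out the labels. SRSF6 was at 23.8, 23.4, 25.3, 31.1 and 21.0 RPKM (reads per kb of transcript and per 10 to the power 6 reads) in the SRp55 siRNA libraries, against 99.5, 99.5, 92.4, 99.7 and 100.0 RPKM in the control siRNA libraries. Its log2 fold change was -2.08 relative to the median gene (limma, Benjamini-Hochberg adjusted p = 2.0e-05). Here and below, limma p-values for levels test the fold change before that of the median is taken off. The reads assigned to transcripts were 94.7 to 189.8 M (M, 10 to the power 6) in SRp55 siRNA libraries and 61.9 to 159.2 M in control siRNA libraries. All 11 beta cell markers checked, INS and PDX1 among them, averaged at least 0.5 RPKM. Of the 7 markers of other islet cells 4 did so too, with SST, the somatostatin gene, at 41.6 to 189 RPKM with SRp55 siRNA and 53.2 to 240 RPKM with control siRNA. Of the 4 acinar markers CPA1 did and the other 3 were listed at 0 in every library. The summed level of the duct markers found, 5 of 6, was 23.3 to 59.7 RPKM with SRp55 siRNA and 19.1 to 31.6 RPKM with control siRNA, higher in 4 of 5 pairs, nearly all of it KRT19. That of 4 mesenchymal markers was 0.754 to 6.38 RPKM with SRp55 siRNA and 0.712 to 2.71 RPKM with control siRNA, higher in 4 of 5 pairs, with COL1A1 alone at 0.5 RPKM or more. The 3 immune markers summed to 24.9 to 48.9 RPKM with SRp55 siRNA and 33.5 to 49.4 RPKM with control siRNA, nearly all of it CD68, and the endothelial markers found were at or near 0. The part of these markers in the results was not tested. In bulk RNA a smaller number of cells with a transcript and less of it per cell cannot be told apart.

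GLIS3 as a whole did not pass the test for a change when SRp55 was lowered. The RPKM of its 17 transcripts summed to 23.9, 19.2, 19.9, 24.6 and 17.9 in SRp55 siRNA libraries 1 to 5, against 20.4, 16.3, 17.6, 21.1 and 16.6 in control siRNA libraries 1 to 5. The groups overlapped, while the SRp55 siRNA library was the higher one in 5 of 5 same-numbered pairs. The means were 21.1 ± 2.96 RPKM with SRp55 siRNA and 18.4 ± 2.23 RPKM with control siRNA (SD, n = 5 each, exact permutation test, two-sided p = 0.151). On the log2(RPKM + 0.5) scale the difference was 0.19 (95% interval -0.08 to 0.46), of which the median tested gene shared 0.11. The 0.19, tested against 0, had an adjusted p of 0.404 (limma), in a comparison where 5.02% of 13630 tested genes passed. The remaining log2 fold change of 0.08 was not tested by itself. With a replicate block the interval around 0.19 was 0.05 to 0.33 (limma, unadjusted p = 0.0166, adjusted p = 0.0812). That interval leaves out 0 and includes the 0.11 of the median gene.

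The small surplus in RPKM was not there in reads per M assigned reads. Per M assigned reads GLIS3 had 74.3, 83.7, 81.8, 88.7 and 85.0 in SRp55 siRNA libraries, against 82.6, 78.6, 84.2, 83.0 and 86.0 in control siRNA libraries. The means were 82.7 ± 5.32 with SRp55 siRNA and 82.9 ± 2.73 with control siRNA (SD, n = 5 each, exact permutation test, two-sided p = 0.952), and 2 of 5 pairs were higher with SRp55 siRNA. The log2 difference was -0.00475 with an interval of -0.15 to 0.14, which bounds a change of the read count on this scale. RPKM divides by transcript length, so short transcripts weigh more in its sum than in reads. Its denominator differs too, being one total per library. Assigned reads averaged 87.0% of that total with SRp55 siRNA and 82.1% with control siRNA. The part of length and denominator in the gap was not tested. After scaling by median of ratios the RPKM sums were 20.2 ± 1.60 with SRp55 siRNA and 19.0 ± 0.741 with control siRNA (SD, n = 5 each). GLIS3 was a gene of middling level, with 63.6% of the tested genes below its mean of 19.7 RPKM.

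**Figure D2:**
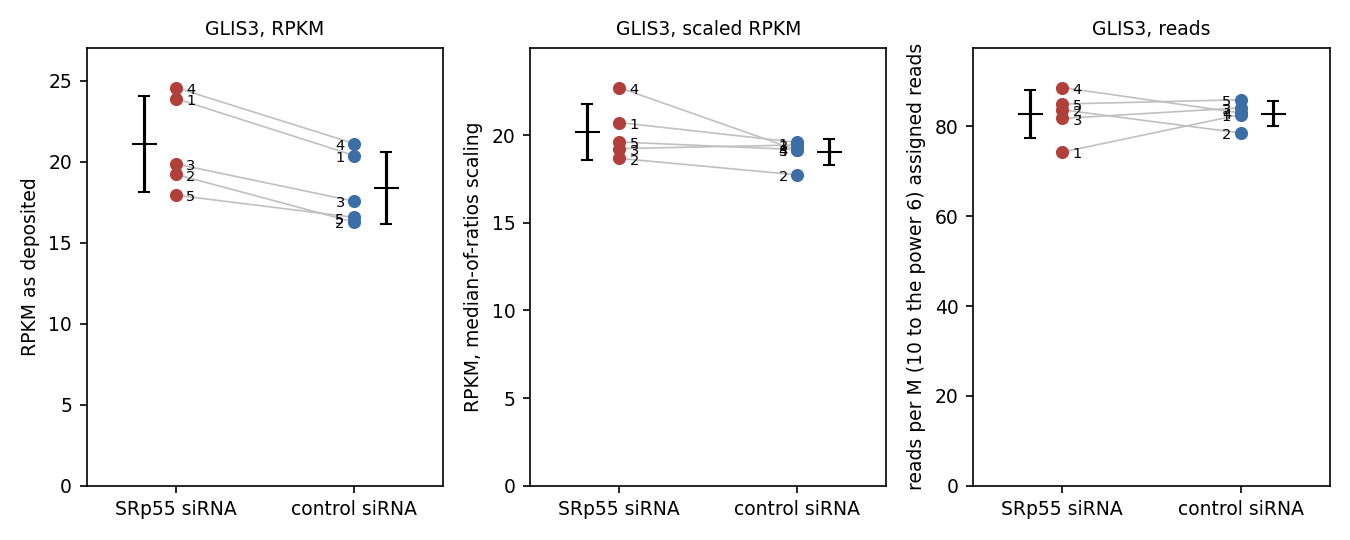
GLIS3 in each library as summed RPKM, as RPKM after median-of-ratios scaling and as reads per M assigned reads, with SRp55 siRNA left of control siRNA; numbers and grey lines join same-numbered libraries and the bars give the mean ± SD of 5. The lines fall to the right in 5 of 5 pairs in the left panel and in 2 of 5 in the right panel.

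The short coding transcript carried most GLIS3 reads, and its level did not differ beyond the spread. ENST00000324333.10, which encodes the 775-residue protein with the full zinc finger region, was at 6.52, 7.81, 7.03, 7.61 and 7.22 RPKM in SRp55 siRNA libraries, against 7.03, 6.60, 7.31, 7.79 and 6.96 RPKM in control siRNA libraries. The ranges overlapped almost entirely. The means were 7.24 ± 0.505 RPKM with SRp55 siRNA and 7.14 ± 0.445 RPKM with control siRNA (SD, n = 5 each, exact permutation test, two-sided p = 0.786). It held 67.5% of GLIS3 reads with SRp55 siRNA and 70.2% with control siRNA. Its usage, the share of the summed RPKM, was 34.9% ± 5.81 with SRp55 siRNA and 39.1% ± 3.28 with control siRNA (exact permutation test, two-sided p = 0.175).

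The deposited level of the long coding transcript was close to 0 in both groups. ENST00000381971.3, which adds N-terminal residues to the short protein, was at 0.0636, 0.0532, 0.0682, 0.0362 and 0.0488 RPKM in SRp55 siRNA libraries, against 0.128, 0, 0.101, 0.0441 and 0.0796 RPKM in control siRNA libraries. The control siRNA 2 library had 0 reads for it, where 3 reads would have made 0.00953 RPKM. Its estimated reads were 30.7, 29.7, 29.7, 30.1 and 29.4 in SRp55 siRNA libraries, against 59.5, 0, 57.9, 30.6 and 57.4 in control siRNA libraries. They sat near 30 in all 5 SRp55 siRNA libraries although the depth of those libraries differed. The log2 ratio of the long transcript to the 6 other coding transcripts, each side as RPKM + 0.5, was -4.46 ± 0.177 with SRp55 siRNA and -4.32 ± 0.212 with control siRNA. The difference of -0.13 was within the spread (SD, n = 5 each, exact permutation test, two-sided p = 0.317). ENST00000477901.1 and ENST00000481827.1, among the other coding transcripts, carry the 486-base exon joined to the 208-base exon, as the long one does. They averaged 2.39 and 1.07 RPKM over the 10 libraries and end before the last exon. Whether they are parts of the long form cannot be read from these levels, so the ratio does not separate long from short proteins.

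The decay-annotated transcript had the largest gap between the groups among the 6 transcripts tested, and it did not pass. ENST00000491889.1, which skips the 208-base exon, was at 4.70, 4.34, 5.28, 5.93 and 3.53 RPKM in SRp55 siRNA libraries, against 4.72, 2.13, 3.29, 4.37 and 2.47 RPKM in control siRNA libraries. The control siRNA 1 library, at 4.72, lay inside the SRp55 siRNA range, and the other controls reached 4.37. The means were 4.76 ± 0.912 RPKM with SRp55 siRNA and 3.40 ± 1.14 RPKM with control siRNA, a ratio of 1.40 with 4 of 5 pairs higher (SD, n = 5 each, exact permutation test, two-sided p = 0.0873). The log2 difference was 0.46 (95% interval -0.07 to 1.00, limma, adjusted p = 0.613), or 0.35 relative to the median transcript. With the replicate block the interval around 0.46 was 0.02 to 0.91 (unadjusted p = 0.0430, adjusted p = 0.443, limma). Its usage was 22.5% ± 2.96 with SRp55 siRNA and 18.1% ± 4.12 with control siRNA (exact permutation test, two-sided p = 0.111). As a share of GLIS3 reads it was 5.25% ± 0.703 with SRp55 siRNA and 3.92% ± 1.02 with control siRNA, higher in 5 of 5 pairs (exact permutation test, two-sided p = 0.0476, not corrected for the other measures tried). Both libraries of pair 1 rounded to 5.22%, and the ranges of the groups overlapped. In the files the transcript is 797 bases long and stops inside the 1114-base exon, while GENCODE 44 extends it to 7515 bases and the last exon, so its deposited level rests on its 5′ part.

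The other 4 tested transcripts differed between the groups by less than the spread among libraries. ENST00000461870.1, which starts inside the gene and reaches the last exon, averaged 3.21 ± 0.873 RPKM with SRp55 siRNA and 2.94 ± 0.550 RPKM with control siRNA (SD, n = 5 each, exact permutation test, two-sided p = 0.587). ENST00000477901.1, an upstream-start transcript annotated with 244 residues, was at 5.13, 1.84, 1.43, 2.13 and 2.39 RPKM in SRp55 siRNA libraries, against 3.11, 1.67, 0.965, 2.49 and 2.71 RPKM in control siRNA libraries. The SRp55 siRNA 1 library stood above the other 9. ENST00000481827.1, with the same 244 residues from another first exon, was at 0.125, 1.45, 1.53, 1.65 and 0.740 RPKM in SRp55 siRNA libraries, against 0, 2.15, 1.28, 1.42 and 0.358 RPKM in control siRNA libraries. The library low for it in each group was number 1, where ENST00000477901.1 was highest. ENST00000490709.1, the second transcript that skips the 208-base exon from the upstream start, averaged 1.05 ± 0.328 RPKM with SRp55 siRNA and 0.821 ± 0.334 RPKM with control siRNA (SD, n = 5 each).

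Of the 17 transcripts 6 averaged at least 0.5 RPKM and were tested, and 0 of 6 passed (limma, Benjamini-Hochberg), in a comparison that called 0.083% of 57818 transcripts. None of the 6 had an unadjusted p under 0.05, and with the replicate block 1 did, the decay-annotated transcript. Among the other 11 no mean over the 10 libraries exceeded 0.253 RPKM, and the 2 intron-retaining transcripts together had 0 to 0.222 RPKM with SRp55 siRNA and 0 to 0.0476 RPKM with control siRNA. Of these, ENST00000465708.1, an upstream-start transcript named after its values were seen, was at 0.199, 0.0463, 0, 0.117 and 0.110 RPKM in SRp55 siRNA libraries, against 0.0278, 0, 0.00329, 0 and 0.00856 RPKM in control siRNA libraries. That is 36.0, 9.66, 0, 36.4 and 24.8 estimated reads in SRp55 siRNA libraries, against 4.85, 0, 0.707, 0 and 2.31 in control siRNA libraries. The SRp55 siRNA library was higher in 4 of 5 pairs and the ranges overlapped (exact permutation test, two-sided p = 0.0476, not corrected for the other transcripts), and it lay below the filter of the limma fit. The test for a shift in usage over the 5 transcripts of at least 5% usage gave an unadjusted p of 0.893 and an adjusted p of 1.00 (limma's diffSplice F test across all genes, not an exact test). The largest shift was 4.40 percentage points, for the decay-annotated transcript, and 0.343% of 9915 genes were called with a shift of at least 10 points. A second route, reads in place of RPKM, left 2 transcripts above that usage and gave a shift of 2.69 points (adjusted p = 0.991).

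**Figure D3:**
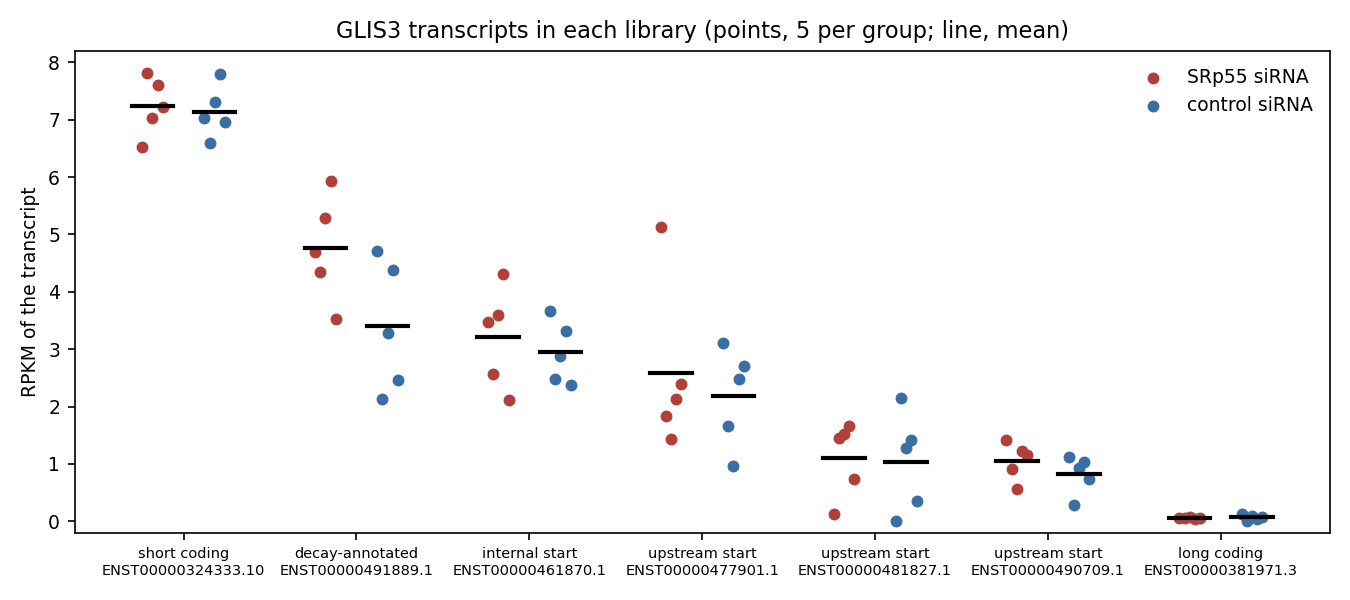
RPKM of the 6 tested GLIS3 transcripts and of the long coding transcript in each library, with SRp55 siRNA left of control siRNA in each pair and a line at the mean of 5. The short coding transcript lies between 6.52 and 7.81 RPKM in all 10 libraries, and the decay-annotated one between 3.53 and 5.93 RPKM with SRp55 siRNA and between 2.13 and 4.72 RPKM with control siRNA.

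Grouping the transcripts by start showed where the RPKM surplus lay. The groups come from the annotation but were formed after the values had been seen, so they are described with no test. The 8 upstream-start transcripts summed to 12.3, 8.70, 9.10, 11.4 and 8.14 RPKM in SRp55 siRNA libraries, against 9.11, 6.84, 6.83, 9.41 and 6.62 RPKM in control siRNA libraries. Each SRp55 siRNA library was above its same-numbered control, although the ranges overlapped. Their share of the GLIS3 RPKM was 45.3% to 51.6% with SRp55 siRNA and 38.9% to 44.7% with control siRNA, without overlap. How many genes would show no overlap under such a grouping is not given here. As a share of reads it was 11.6% to 17.6% with SRp55 siRNA and 9.49% to 12.9% with control siRNA, with overlap. The 4 downstream-start transcripts averaged 7.86 ± 0.543 RPKM with SRp55 siRNA and 7.56 ± 0.514 RPKM with control siRNA. The 5 internal-start transcripts averaged 3.31 ± 0.937 RPKM with SRp55 siRNA and 3.06 ± 0.554 RPKM with control siRNA (SD, n = 5 each).

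By the ends in the files, 3 transcripts reach the last exon, which carries the C-terminal end of the protein. They averaged 10.5 ± 0.949 RPKM with SRp55 siRNA and 10.2 ± 0.891 RPKM with control siRNA. The other 14 averaged 10.6 ± 2.45 RPKM with SRp55 siRNA and 8.23 ± 1.41 RPKM with control siRNA (SD, n = 5 each). Among these 14 is the decay-annotated transcript, at 4.76 RPKM with SRp55 siRNA and 3.40 RPKM with control siRNA. GENCODE 44 extends it to the last exon, so the split depends on its end in the files. Among the 10 transcripts that span the 208-base exon, the 3 that skip it made up 30.8% to 36.5% of the RPKM with SRp55 siRNA and 17.8% to 36.1% with control siRNA. Summed over each exon, the second exon of the upstream start had 8.62 ± 1.44 RPKM with SRp55 siRNA and 6.77 ± 1.30 RPKM with control siRNA, a ratio of 1.27. The first exon of the downstream start had 7.24 ± 0.505 RPKM with SRp55 siRNA and 7.14 ± 0.445 RPKM with control siRNA, a ratio of 1.01. From the third shared exon to the last one the ratio was 1.03. GENCODE 44 places the antisense genes GLIS3-AS1 and GLIS3-AS2 within the span, and GLIS3-AS2 overlaps the upstream first exon. They were not analysed here, and since any use of strand in counting is not given in the sources used here, reads from either strand at that exon cannot be told apart.

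**Figure D4:**
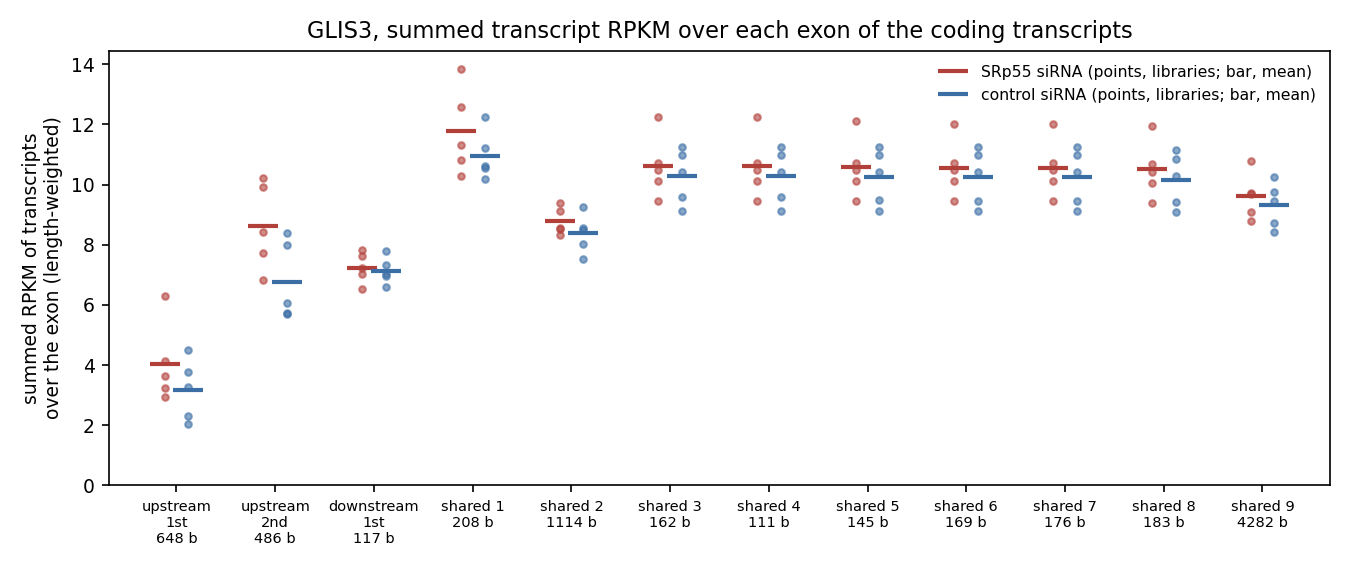
Summed RPKM of the GLIS3 transcripts over each exon of the coding transcripts, weighted by the length covered, with points for libraries, bars for means, exon lengths in bases under the axis and SRp55 siRNA left of control siRNA. The means differ most at the upstream exons (8.62 against 6.77 RPKM at the second) and by 0.292 to 0.349 RPKM from the third shared exon on.

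Relatives of GLIS3 by DNA-binding domain were mostly below the filter. Of 12 GLI, GLIS and ZIC family genes 3 averaged at least 0.5 RPKM, and 0 of 3 passed (limma, adjusted p 0.404 for GLIS3, 0.548 for GLIS2 and 0.689 for GLI4), where 5.02% of all tested genes did. GLIS2, a close relative, averaged 18.9 ± 3.53 RPKM with SRp55 siRNA and 21.2 ± 3.44 RPKM with control siRNA (SD, n = 5 each). GLI4 averaged 7.47 ± 2.61 RPKM with SRp55 siRNA and 6.50 ± 1.95 RPKM with control siRNA (SD, n = 5 each). GLI3, a Hedgehog pathway effector named after its values were seen, was below the filter at 0.561, 0.342, 0.288, 0.236 and 0.576 RPKM in SRp55 siRNA libraries, against 0.117, 0.107, 0.171, 0.206 and 0.120 RPKM in control siRNA libraries. Those ranges did not overlap, and the share of all genes without overlap is not given here. On reads per M assigned, where 17.1% of genes were called, GLI3 was called higher. With no filter on low RPKM values 10 of the 12 family genes were tested, GLI3 among them, and 0 passed. That setting called 642 of 20685 genes. ZIC2 was listed at 0 in all libraries.

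Among 17 genes for protein partners and regulators of GLIS3, 15 were tested and 1 passed, a share close to the 5.02% of all tested genes that passed. NEDD4, a HECT-type ubiquitin ligase reported to bind GLIS proteins and lower their stability, was at 9.17, 9.72, 6.94, 9.39 and 8.53 RPKM in SRp55 siRNA libraries, against 2.85, 3.49, 3.69, 4.04 and 3.14 RPKM in control siRNA libraries. The lowest SRp55 siRNA library was above the highest control. NEDD4 rose by 1.12 on the log2 scale relative to the median gene (SE 0.12, limma, adjusted p = 0.001), and it passed under all 17 alternatives tried. The related ligases ITCH (30.7 ± 4.27 RPKM with SRp55 siRNA, 32.0 ± 3.38 RPKM with control siRNA) and SMURF2 (7.67 ± 0.607 RPKM with SRp55 siRNA, 6.84 ± 0.745 RPKM with control siRNA) did not pass. SUFU, which binds GLIS3 and GLI proteins, averaged 4.66 ± 1.69 RPKM with SRp55 siRNA and 5.06 ± 1.62 RPKM with control siRNA. The co-activator genes WWTR1 and YAP1 were below the filter. The median log2 fold change of the 15 was -0.01, where the median over all tested genes is 0 by construction.

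NEUROD1 and PDX1 encode factors that act with GLIS3 at the insulin promoter. NEUROD1 averaged 81.9 ± 5.32 RPKM with SRp55 siRNA and 62.6 ± 5.43 RPKM with control siRNA (SD, n = 5 each, limma, adjusted p = 0.0515, and 0.016 with the replicate block). PDX1 averaged 79.4 ± 6.49 RPKM with SRp55 siRNA and 99.8 ± 8.63 RPKM with control siRNA (limma, adjusted p = 0.101, and 0.028 with the block). Neither pair of ranges overlapped, and the share of all tested genes without overlap is not given here. The block called 13.1% of all tested genes.

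Of 20 genes reported as Glis3 targets in mouse, 19 were tested, 2 rose, 2 fell and 15 did not pass, where 3.76% of all tested genes rose and 1.25% fell. SLC30A8, the zinc transporter of insulin granules, had a log2 fold change of 1.04 (limma, adjusted p = 0.003). The log2 fold change of NEUROG3, which drives endocrine commitment, was 0.47 (adjusted p = 0.040). UCN3, a beta cell maturity hormone, fell by 0.74 on the log2 scale (adjusted p = 0.022), and GLP1R, the incretin receptor, fell by 0.77 (adjusted p = 0.025). The median of the 19 was -0.17. The INS mean was 9520 RPKM with SRp55 siRNA and 6597 RPKM with control siRNA (adjusted p = 0.202), and CCND2, a cell cycle target, was listed at 0 in all libraries. ISL1, a further islet factor, averaged 61.7 ± 3.66 RPKM with SRp55 siRNA and 52.0 ± 2.54 RPKM with control siRNA (adjusted p = 0.155). With the replicate block 4 rose and 4 fell, adding NEUROD1, ISL1, PDX1 and NKX6-1, where 9.39% of all genes rose and 3.7% fell. On reads 2 rose and 6 fell, where 7.46% of all genes rose and 9.67% fell. After median-of-ratios scaling 2 rose and 3 fell, where 3.02% of all genes rose and 3.72% fell. Of the 4 called genes SLC30A8 alone passed without each library in turn. The NEUROG3 call was lost without SRp55 siRNA 1, 2, 3 or 4 or control siRNA 1, 2, 3 or 5 (adjusted p 0.0566 to 0.0951), and also with no filter on low values (0.0511). GLP1R was lost without SRp55 siRNA 2, 3 or 4 or control siRNA 1, 2 or 3 (adjusted p 0.0520 to 0.0633), and UCN3 without SRp55 siRNA 3 or control siRNA 1 or 2 (0.0536 to 0.0597).

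**Figure D5:**
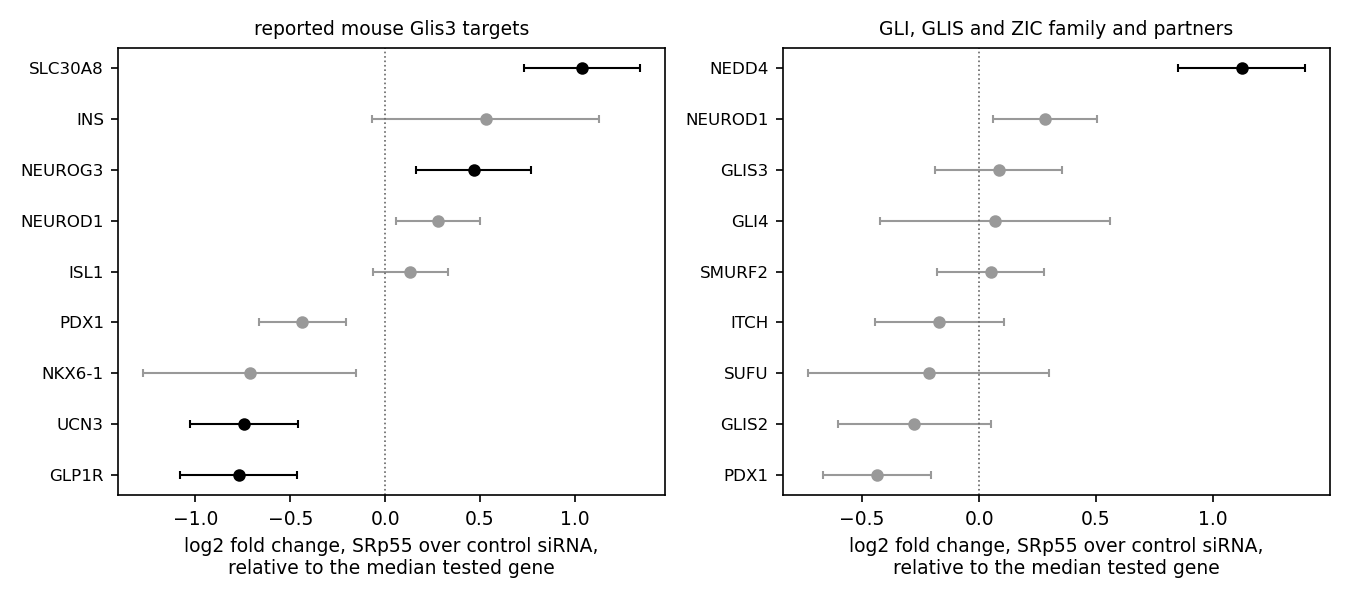
Log2 fold change of SRp55 siRNA over control siRNA, relative to the median tested gene, with 95% intervals from limma, for the named genes among the reported mouse Glis3 targets (left) and among the GLI, GLIS and ZIC family with GLIS3 partners (right); black marks genes with an adjusted p under 0.05. NEDD4 is at 1.12 and SLC30A8 at 1.04, while GLIS3 is at 0.08.

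Within 500 kb of the ends of GLIS3 on chromosome 9, 11 genes were listed, 9 were tested and 1 rose, where 3.76% of all tested genes rose. SLC1A1, a glutamate and cysteine transporter, was at 1.86, 1.48, 1.53, 1.77 and 1.67 RPKM in SRp55 siRNA libraries, against 0.959, 0.750, 1.15, 1.01 and 1.04 RPKM in control siRNA libraries, without overlap. It rose by 0.44 on the log2 scale (limma, adjusted p = 0.019). The call was lost without SRp55 siRNA 4 (adjusted p = 0.0520) or control siRNA 2 (0.0523). PLPP6, a lipid phosphatase, averaged 8.06 ± 1.02 RPKM with SRp55 siRNA and 10.3 ± 0.860 RPKM with control siRNA (adjusted p = 0.112). It was called lower with the block (0.038, a setting that called 13.1% of genes), after median-of-ratios scaling (0.025, a setting that called 6.75% of genes) and on reads (0.004, with 17.1% called). RFX3, a cilium transcription factor, averaged 10.2 ± 1.27 RPKM with SRp55 siRNA and 8.97 ± 1.23 RPKM with control siRNA (adjusted p = 0.449). CDC37L1, RCL1, AK3, SPATA6L, RFX3-DT and ENSG00000235326.1 did not pass (adjusted p 0.127 to 0.983).

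The pattern of GLIS3 from library to library was most like that of 5 genes outside the lists. Over the 10 libraries, the deviations of log2(RPKM + 0.5) from the group mean after median-of-ratios scaling were correlated among 11349 genes of at least 2 RPKM, and the values are given as a description only, since all points share a library's depth and scaling. HABP4, an RNA-binding protein gene, came first with r = 0.958. ATP2B1-AS1, a non-coding RNA, followed with 0.932, then MAGT1, a magnesium transporter gene, with 0.924. PEG3, an imprinted zinc finger gene, had 0.907, and CACNA1B, the pore subunit of the N-type calcium channel, had 0.891. SRSF6 had 0.288, at rank 2414. None of these 5 genes passed the test between groups (limma, adjusted p 0.505 to 0.956).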

How the data were processed

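TopHat alignment to GRCh37 (hg19) is named in the submitters' processing notes. Which tool gave reads to transcripts, from which annotation and with what strand setting, is not given in the sources used here. Every deposited file gives the start, end and length of 155130 transcripts. A text field holds the estimated read count, often fractional, and the RPKM of each. Exon structures of the GLIS3 transcripts were taken from GENCODE and trimmed to the ends in the files. The deposited RPKM was rebuilt from reads, length and one total per library in 100% of values. Assigned reads were 76.8% to 96.5% of that total with SRp55 siRNA and 74.2% to 90.9% with control siRNA.

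Gene values are sums over transcripts. Levels were tested on log2(RPKM + 0.5) with limma 3.58.1 in R 4.3.3 over genes, or transcripts, of at least 0.5 RPKM on average, with Benjamini-Hochberg adjustment over all of them and a threshold of 0.05. Fold changes are relative to the median gene or transcript and, with the added constant, understate low genes. The limma p-values for levels test the fold change against 0 before the median is taken off. Usage was tested with limma's diffSplice F test, requiring a shift of 10 percentage points, and single values with exact permutation tests over samples (scipy 1.17.1), which cannot go below 0.00794. The fits were tested on simulated data. Samples were grouped by the labels, with 5 independent preparations per group, and no 2 libraries held identical values. Same-numbered libraries deviated together (correlations 0.128 to 0.414, against -0.174 to 0.121 for different numbers), so the numbers pair the libraries. The tests reported are unpaired unless a replicate block is named, and the block is an alternative. Intervals from replicates carry the spread between preparations, and floors cover counting error only. Genes named are all GLIS3 transcripts, SRSF6, list members that passed, up to 3 per list that did not (smallest adjusted p), tested neighbours and the 5 genes most like GLIS3. The members and lists were chosen with earlier results of these data known. Transcript annotation is from GENCODE 44 and promoters from RefSeq; 95.0% of genes had a symbol and 92.4% of transcripts a biotype. Some results that fall under these rules are not reported here.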

Additional observations from a re-analysis of the deposited data

Results flagged for a closer look

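ENST00000477901.1 in the SRp55 siRNA 1 library, at 5.13 RPKM, lay far above the other 4 libraries of its group, which spanned 1.43 to 2.39 RPKM. SRSF6 in the control siRNA 3 library, at 92.4 RPKM, lay below the other 4 controls, which spanned 99.5 to 100.0 RPKM. These came from 44 groups of 5 checked for a library that stands apart, and chance marks about 1 in 20 groups.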

How the results depend on the processing

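The GLIS3 gene level stayed between 0.01 and 0.16 on the log2 scale, with an adjusted p of 0.0812 to 0.971, under the 17 alternatives tried, and without each library in turn between 0.04 and 0.11. Of the GLIS3 transcripts 0 passed under any of the 17 alternatives, and usage shifts ranged from 2.69 to 5.66 points (diffSplice F test, adjusted p at least 0.810). The log2 ratio of the long transcript to the other coding transcripts differed by -0.19 to -0.06. With the full-length short transcript alone, an alternative chosen after seeing the data, the ratio differed by -0.06. The replicate block, which uses the pairing, moved the count of genes called to 1784, and reads moved it to 2450, from 684; without each library in turn it ranged from 259 to 1083. Transcripts called, 48, became 2 with the replicate block, 189 on reads and 18 with no filter, and ranged from 12 to 47 without each library. Called list members, 7, became 13 with the block, 16 on reads and 11 after median-of-ratios scaling, and ranged from 2 to 9 without each library. With reads, the calls over all genes split 1067 higher and 1383 lower, and after median-of-ratios scaling 412 higher and 507 lower, against 513 and 171. Uncalled transcripts changed sign: ENST00000481827.1 to -0.00359 with a pseudocount of 1 and down to -0.33 without control siRNA 1, ENST00000461870.1 to 0.0615 with no filter, and without single libraries ENST00000461870.1 ranged from -0.12 to 0.0562, ENST00000477901.1 from -0.16 to 0.19, ENST00000481827.1 from -0.33 to 0.38 and ENST00000490709.1 from -0.0285 to 0.27. The causes were not tested. Long-transcript reads of 0 to 59.5 limit that ratio.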

Other observations

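Genes that carry GLIS3-like signals through the cilium and the Hedgehog pathway showed no call. Of 14 such genes 12 were tested and 0 passed (limma, median log2 fold change -0.01), where 5.02% of all tested genes passed, 6.75% after median-of-ratios scaling and 17.1% on reads. GPR161, a ciliary receptor that restrains the pathway, averaged 3.00 ± 0.250 RPKM with SRp55 siRNA and 4.00 ± 0.618 RPKM with control siRNA (adjusted p = 0.114, and called lower after median-of-ratios scaling and on reads). SMO, the pathway's signal transducer, averaged 1.05 ± 0.587 RPKM with SRp55 siRNA and 0.617 ± 0.237 RPKM with control siRNA (adjusted p = 0.300, and called higher on reads).

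Of 9 genes of the SRp55 apoptosis pathway 7 were tested, 1 rose and 1 fell, where 3.76% of all tested genes rose and 1.25% fell. The 1 that fell was SRSF6, the siRNA target, so its fall is the knockdown itself and no result about the pathway. PMAIP1, which encodes the BH3-only protein NOXA, rose by 0.60 on the log2 scale (limma, adjusted p = 0.042). The PMAIP1 call was lost without SRp55 siRNA 2, 3 or 4 or control siRNA 1, 2, 3 or 5, and also with no filter on low values (adjusted p = 0.0587). BCL2L11, the BIM gene, averaged 16.0 ± 2.00 RPKM with SRp55 siRNA and 13.8 ± 2.40 RPKM with control siRNA (adjusted p = 0.393). BAX averaged 118 ± 31.3 RPKM with SRp55 siRNA and 106 ± 42.8 RPKM with control siRNA (adjusted p = 0.679). BAK1, a pore-forming relative of BAX, averaged 10.6 ± 0.640 RPKM with SRp55 siRNA and 12.3 ± 0.946 RPKM with control siRNA (adjusted p = 0.219, and called lower after median-of-ratios scaling, which called 6.75% of genes, and on reads, which called 17.1%).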
